A study of Mus musculus with 30 samples.

Results

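Transcript levels of 8 genes of the dual specificity phosphatase family were measured in CD4 T cells sorted from mouse spleen. The genes were taken by symbol from a list made for this purpose, which held Dusp1, Dusp2, Dusp4, Dusp5, Dusp6, Dusp10, Dusp11 and Dusp22, and their Ensembl identifiers were looked up in GENCODE M21. All 8 were found in both assays, out of 55573 gene identifiers in the QuantSeq files and 34030 named genes in the RNA-seq files, and all 8 passed the filter on low counts in both.

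The series holds 30 libraries from C57BL/6 mice 8 weeks old. QuantSeq, which counts the 3' ends of transcripts, gave 22 libraries in 9 groups. TFH2 is the labels' name for cells that came from IL-4BacTg x OTII mice and were sorted as CD4+CD45.2+ PD1+ through CXCR5lo, CXCR5int or CXCR5hi gates (n = 2 each), and TFH cells came from OTII Tg mice through the same gates (n = 3, 2 and 3). Bcl6KO cells (n = 2) carried Bcl6f/fCd4cre x OTII Tg and came through a CD4+hCD2+ gate, while Il4KO cells (n = 2) carried Il4-/- x OTII Tg and were sorted as CD4+ with no further marker. The reference for these groups was TH2 cells of IL-4BacTg x OTII Tg mice sorted as CD4+hCD2+ (n = 4). All QuantSeq groups therefore carried the OTII transgene, a T cell receptor for ovalbumin. RNA-seq of whole transcripts gave TFH cells of OTII Tg mice from the CXCR5hi PD1+ gate (n = 2), TH2 cells of IL-4BacTg mice sorted as CD4+hCD2+ (n = 2) and naive CD4+CD62L+CD44-CD25- cells of wild type mice (n = 2). It also gave 1 library each labelled TFH2 CXCR5hi and TH2 from IL-4BacTg x OTII mice.

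What limits these groups as models is visible in the labels. Cd4cre acts in all cells that pass through a CD4-expressing stage, not in TFH cells alone. The hCD2 gate reads a transgenic reporter carried by IL-4BacTg, and the Bcl6KO label lists no IL-4BacTg although its gate is hCD2+. TFH and TH2 groups differ in gate and in genotype as well as in cell type, in both assays, since TH2 cells carry IL-4BacTg and TFH cells do not. TFH2 and TH2 cells of QuantSeq share the IL-4BacTg x OTII genotype and differ in gate. In RNA-seq, TFH cells carry OTII Tg, which the labels of TH2 and naive cells do not list, and naive cells are wild type. Genotype, gate and cell type therefore cannot be told apart in any RNA-seq comparison. No label names an animal, a replicate number or a batch, so p-values reflect only how far these libraries spread, and that spread may be technical.

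Dual specificity phosphatases remove phosphate from both the tyrosine and the threonine of the activation loop of MAP kinases, and so switch off ERK, p38 and JNK. The typical members, also called MAP kinase phosphatases, are in large part induced by the kinases they inactivate, which makes their transcripts a feedback arm of T cell receptor signalling. Dusp1, Dusp2, Dusp4 and Dusp5 act in the nucleus, Dusp6 acts on ERK in the cytoplasm, and Dusp10 prefers p38 and JNK. Dusp11 and Dusp22 are atypical members: Dusp11 removes phosphates from the 5' ends of RNA, and Dusp22 dephosphorylates the kinase Lck in T cells.

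QuantSeq libraries held 1834612 to 4442404 counts and RNA-seq libraries 36048137 to 107398014 counts. Levels are given as counts per 1000000 (CPM) scaled by TMM factors, and differences as log2 ratios ± standard error of the fit. A call is an adjusted p under 0.05 in edgeR's quasi-likelihood test, 2-sided, with Benjamini-Hochberg adjustment over all genes tested. Cd4 was detected in every library. In QuantSeq the TFH markers followed the labels: Cxcr5 was 81.8 to 134 CPM in TFH CXCR5hi and 118 to 135 CPM in TFH2 CXCR5hi libraries, against 0 in all TH2, Bcl6KO and Il4KO libraries. In RNA-seq the single library labelled TFH2 CXCR5hi went against its label, with 1.09 CPM of Cxcr5, 5.83 of Pdcd1, 12.8 of Bcl6 and 424 of Gata3. The single library labelled TH2 from IL-4BacTg x OTII mice did so as well, with 128 CPM of Cxcr5, 131 of Pdcd1 and 114 of Bcl6. TH2 libraries of RNA-seq had 0 CPM of Cxcr5 and 6.19 to 6.29 of Pdcd1. The 2 single libraries entered no test and are described by their labels at the end. Xist, expressed from the inactive X of female cells, and the Y-linked Ddx3y split the groups: QuantSeq TFH and Bcl6KO libraries held Xist and no Ddx3y, TFH2 and Il4KO libraries held Ddx3y, and the TH2 group held 2 libraries of each kind. All 8 phosphatase genes are autosomal, and whether their levels differ by sex was not tested. In TFH2 against TFH, cell type and genotype cannot be told apart from the Xist and Ddx3y split.

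In QuantSeq, Dusp1 was the member that separated TFH and TFH2 cells from TH2 cells, and the calls were few. In TFH CXCR5hi against TH2 cells, 1 of the 8 members was called higher and none lower, where 3.51% of 14383 genes were called in either direction. The members' median log2 ratio was 0.19, and that of all genes tested was 0. In TFH2 CXCR5hi against TH2 cells, again 1 member was called, Dusp1, against 2.94% of genes, with a members' median of 0.27. Over all 14 TFH and TFH2 libraries against TH2, 1 member was called higher and 1 lower, against 10.2% of genes. In that comparison the median of all genes was -0.17 and that of the members 0.05. These 3 comparisons share their 4 TH2 libraries.

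No member was called by edgeR in the other QuantSeq comparisons, and DESeq2 called none in them either. The share of genes called was 0.647% in TFH2 against TFH over the 3 gates, where 1 member (Dusp2) had an unadjusted p under 0.05. It was 0.139% between CXCR5hi and CXCR5lo gates of TFH cells, with 0 members at an unadjusted p under 0.05. It was 0.153% between the same gates of TFH2 cells, with 1 member (Dusp5). The gate difference in TFH2 against that in TFH gave 0.0139% and 0 members, Bcl6KO against TH2 0.0209% and 0 members, and Il4KO against TH2 0.0695% and 2 members (Dusp2 and Dusp6). At an unadjusted p under 0.05 stood 1385, 872, 628, 787, 837 and 768 of 14383 genes, in the same order of comparisons. The member counts at an unadjusted p are to be read beside these. With so few genes called, the absence of members among them is close to what the background gives.

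**Figure D1:**
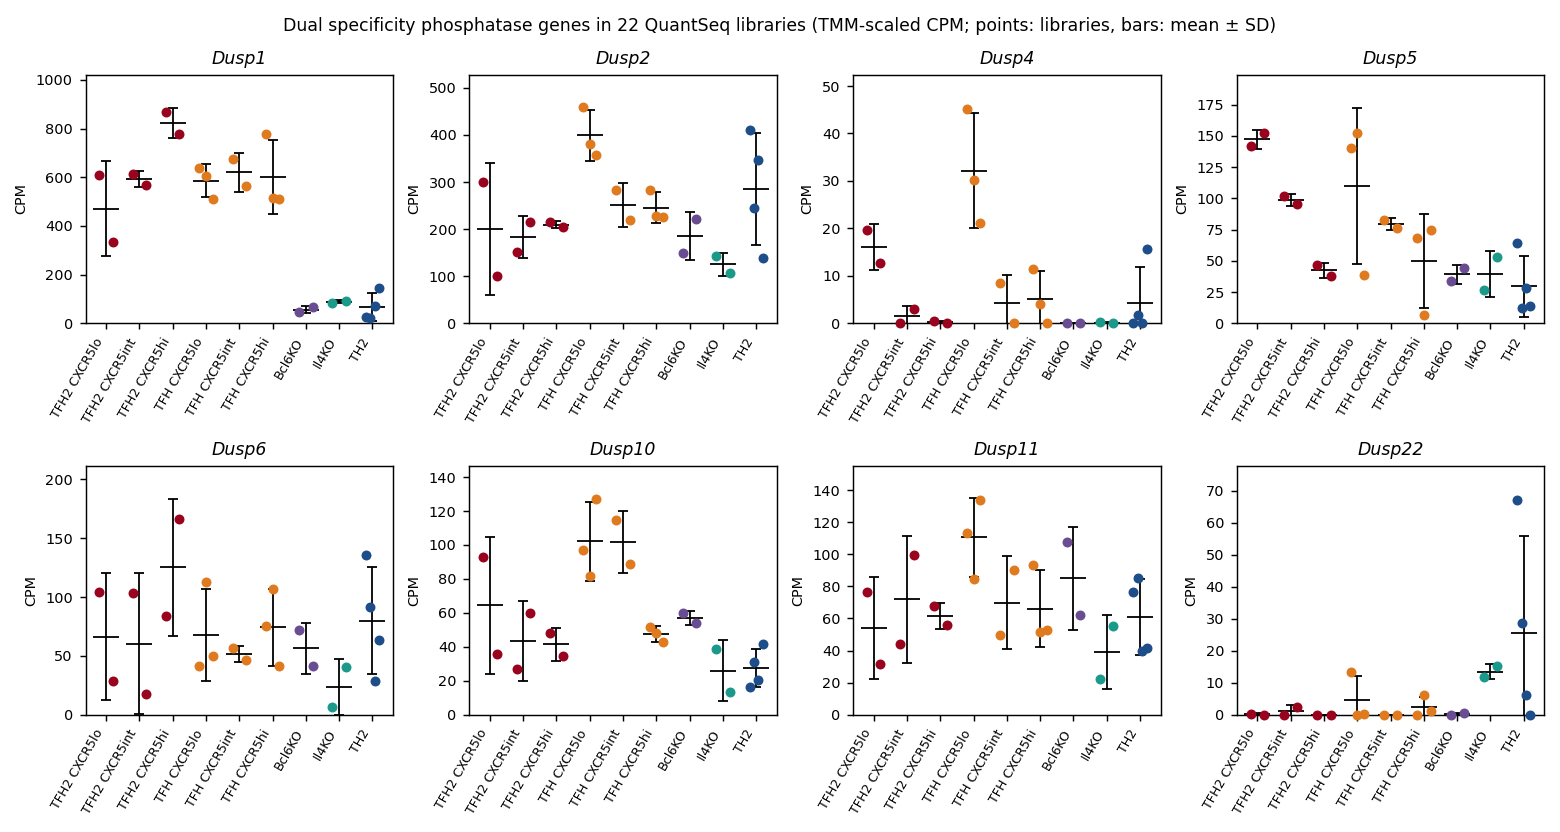
TMM-scaled CPM (y axis, each panel on its own scale from 0) of the 8 phosphatase genes in 22 QuantSeq libraries by group (x axis); points are libraries and bars the mean ± SD. Dusp1 lies between 334 and 867 CPM in all 14 TFH2 and TFH libraries, above the 22.1 to 146 CPM of the 4 TH2 libraries, and Dusp22 has its highest value, 67.1 CPM, in a TH2 library.

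Dusp1, also known as MKP-1, is a nuclear phosphatase of p38, JNK and ERK and an immediate early gene. It lies on chromosome 17 (26505590 to 26562128, minus strand, GRCm38). In QuantSeq it had 778, 515 and 512 CPM in TFH CXCR5hi libraries, against 25.9, 22.1, 69.7 and 146 CPM in TH2 libraries. The lowest TFH CXCR5hi library was above the highest TH2 library. The log2 ratio was 3.20 ± 0.48 (adjusted p = 0.000441), a 9.18-fold higher mean level in the fit. TFH2 CXCR5hi libraries had 867 and 779 CPM, and the log2 ratio to TH2 was 3.65 ± 0.51 (adjusted p = 0.000244). Transcripts of other cells moved with that comparison. In TFH2 CXCR5hi against TH2 libraries, 6 erythroid genes summed to 1186 to 1590 against 0 to 39.6 CPM, 12 myeloid genes to 728 to 951 against 135 to 229 CPM and 11 B cell genes to 659 to 1065 against 60.6 to 148 CPM. Of those tested, 2 of 4, 4 of 11 and 3 of 8 were called higher and none lower, against 2.94% of all genes. In TFH CXCR5hi libraries the sums were 87.0 to 142, 228 to 414 and 266 to 305 CPM, in the same order. Of those tested, 2 of 4, 2 of 11 and 1 of 8 were called higher than in TH2 and none lower. The share of all genes called there was 3.51%. The part of these transcripts in the Dusp1 ratios was not tested. The other gates also lay above all TH2 libraries: 609 and 334 CPM in TFH2 CXCR5lo, 615 and 569 in TFH2 CXCR5int, 640.0, 606 and 509.7 in TFH CXCR5lo, and 676 and 563 in TFH CXCR5int. Over all gates the mean was 612 ± 135 CPM (SD, n = 14) against 65.8 ± 57.4 CPM in TH2 (SD, n = 4), with a log2 ratio of 3.21 ± 0.43 (adjusted p = 6.93e-05). In sorted bulk RNA, fewer cells with a transcript and less transcript per cell cannot be told apart.

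Ordered by mean level, Dusp1 was highest in TFH2 CXCR5hi libraries, whose range did not overlap that of the next group, TFH CXCR5int. The other TFH2 and TFH groups overlapped their neighbours in that order. Il4KO, TH2 and Bcl6KO groups stood last, with means of 88.7, 65.8 and 56.4 CPM, and the ranges of the 3 overlapped TH2. TFH2 and TFH cells did not differ in a call: 629 ± 185 CPM (SD, n = 6) against 600.0 ± 95.3 CPM (SD, n = 8), a log2 ratio of 0.02 with a 95% interval from -0.66 to 0.71. Between gates of TFH2 cells the ratio of CXCR5hi to CXCR5lo was 0.80 ± 0.60 (adjusted p = 0.848), and in TFH cells it was 0.04 ± 0.49 (adjusted p = 1).

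The TH2 libraries were not alike for Dusp1. Replicates 1 and 2, which hold Xist, had 25.9 and 22.1 CPM, and replicates 3 and 4, which hold Ddx3y, had 69.7 and 146 CPM. Against replicates 1 and 2 alone, the log2 ratio was 4.64 ± 0.40 for TFH CXCR5hi (adjusted p = 8.85e-27) and 5.10 ± 0.42 for TFH2 CXCR5hi (adjusted p = 1.53e-29). Against replicates 3 and 4 alone, it was 2.49 ± 0.37 (adjusted p = 5.33e-09) and 2.96 ± 0.40 (adjusted p = 3.23e-11). The call and its direction held with either pair, but the size did not. Each fit pools the spread over groups and genes. The smaller p-values with fewer TH2 libraries are therefore not to be read as stronger evidence than those with all 4. The log2 ratio was over 1.5 times larger against replicates 1 and 2, and as a fold the change is greater still.

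The promoter of Dusp1 is shown because it is the only member called higher in TFH cells by both assays, that of Dusp5 because it came nearest the threshold among the others over all QuantSeq gates and was called higher in RNA-seq, and that of Dusp22 because it was called lower. Sequences are RefSeq windows of GRCm38.p6, given 5' to 3' on the gene's strand, and hold no base of an annotated exon of the gene. The Dusp1 window lies just upstream of its coding transcript and within an intron of a longer noncoding one. Windows were found for 7 of the 8 members, all but Dusp4. The whole 250 bases upstream of each RefSeq start were searched on both strands for the CRE (TGACGTCA), its half-site (TGACG, 2 of which lie within each CRE), AP-1 (TGANTCA), the CArG box of serum response factor, the ETS core (CCGGAAG) and the GC box (GGGCGG). Capitals mark CRE, CRE half-site, AP-1 and CArG matches.
Dusp1, chr17:26508520-26508722, minus strand: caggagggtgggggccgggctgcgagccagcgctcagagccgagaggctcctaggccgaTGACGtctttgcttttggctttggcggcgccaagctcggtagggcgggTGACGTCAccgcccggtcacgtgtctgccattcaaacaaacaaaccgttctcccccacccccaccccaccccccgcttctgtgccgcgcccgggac
Dusp5, chr19:53528895-53529108, plus strand: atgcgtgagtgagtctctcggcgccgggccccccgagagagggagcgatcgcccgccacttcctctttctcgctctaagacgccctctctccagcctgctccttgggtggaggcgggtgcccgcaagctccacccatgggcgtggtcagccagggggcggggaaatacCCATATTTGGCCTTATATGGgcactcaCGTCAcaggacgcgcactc
Dusp22, chr13:30659809-30659998, plus strand: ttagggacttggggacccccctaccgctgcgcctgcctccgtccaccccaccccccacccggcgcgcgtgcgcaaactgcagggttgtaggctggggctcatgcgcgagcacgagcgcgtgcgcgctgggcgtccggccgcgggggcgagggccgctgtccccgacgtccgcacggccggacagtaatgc

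Dusp1 held a full CRE starting at position -143 from its RefSeq start and a separate half-site at -191. Of the 7 members, Dusp1 was the one with a full CRE, which 1.55% of all 32851 windows hold. Dusp5 held a pair of adjacent CArG boxes, at -82 and -72, a motif that 1.47% of windows hold, and a CRE half-site at -55. Dusp11 held 1 CRE half-site, at -33, as 17.8% of windows hold at least 1. Dusp22 held a GC box (32.7% of windows), as did Dusp1, Dusp2, Dusp5 and Dusp10. No AP-1 or ETS core letters were in the 7 windows, against 6.75% and 6.91% of all windows, and Dusp6 held none of the motifs searched. A match describes letters and is not a measured binding site.

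**Figure D2:**
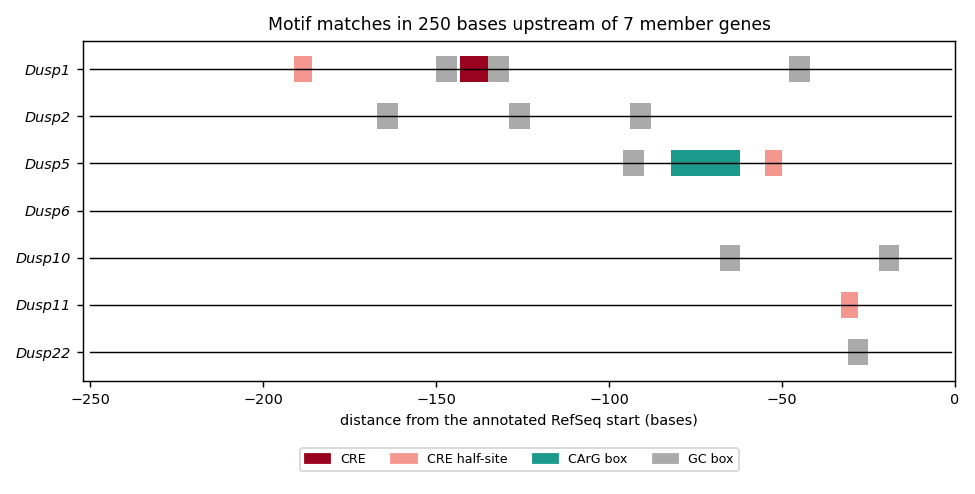
Matches to the motifs searched in the 250 bases upstream of the RefSeq start of 7 member genes (x axis, distance in bases; 1 line per gene; half-sites inside a full CRE are not drawn again). The full CRE is in Dusp1 at -143, and the adjacent CArG boxes are in Dusp5 at -82 and -72.

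Dusp1 moved with the immediate early genes that cell sorting can induce. The summed level of 12 such genes (Fos, Fosb, Jun, Junb, Egr1, Ier2, Nr4a1, Nr4a3, Atf3, Hspa1a, Hspa1b and Dnajb1) was 6238 to 6901 CPM in TFH2 CXCR5hi, 7202 to 8747 CPM in TFH CXCR5hi, 2115 to 2407 CPM in Bcl6KO, 2161 to 2675 CPM in Il4KO and 2220 to 3148 CPM in TH2 libraries. In TFH CXCR5hi libraries 0 to 3 of the 12 genes had no count, and in TH2 libraries 2 to 6. Within TFH and TFH2 libraries, TFH2 CXCR5hi had the highest mean Dusp1, and its immediate early sums were below those of every TFH library (7202 CPM or more). Of the other TFH2 gates, CXCR5lo had sums of 5757 to 6020 CPM and CXCR5int of 6515 to 7380 CPM. The part of sorting in the Dusp1 difference was not tested.

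**Figure D3:**
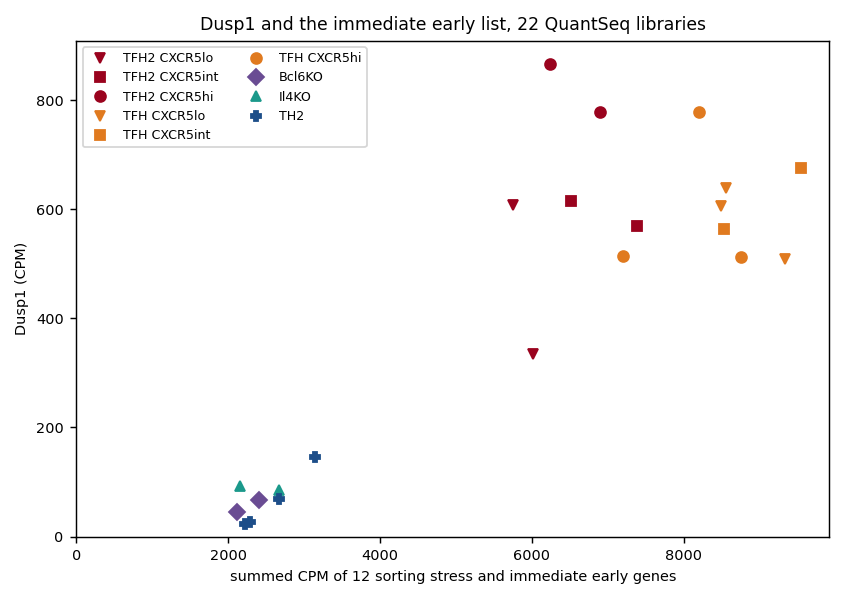
Dusp1 in CPM (y axis) against the summed CPM of 12 sorting stress and immediate early genes (x axis) in 22 QuantSeq libraries, 1 point per library, coloured by cell type and shaped by gate. The 14 TFH2 and TFH libraries lie at sums of 5757 CPM or more and Dusp1 of 334 CPM or more, and the 8 others at sums of 3148 CPM or less and Dusp1 of 146 CPM or less.

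The genes whose log2 CPM was most like that of Dusp1 over the 22 QuantSeq libraries were Art2a-ps (Pearson r = 0.94), Junb (0.94) and Tox2 (0.94), and 114 genes reached an r of 0.8. The libraries fall into the 2 sets just described and share depth and preparation, so these values describe that split. Junb, an AP-1 subunit and itself in the immediate early list, had 5982 CPM on average in TFH CXCR5hi against 1832 CPM in TH2 libraries. No other typical member had a gene at an r of 0.8. The r between Dusp1 and other members was 0.56 for Dusp10, 0.44 for Dusp5, 0.42 for Dusp4, 0.14 for Dusp2, 0.14 for Dusp6, 0.13 for Dusp11 and -0.61 for Dusp22.

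RNA-seq gave the same direction for Dusp1 with a smaller ratio. It had 1639 and 1581 CPM in TFH CXCR5hi, against 606 and 668 in TH2 and 612 and 583 in naive libraries. The TFH libraries stood apart, and the TH2 and naive libraries overlapped. The log2 ratio was 1.34 ± 0.09 to TH2 (adjusted p = 1.06e-07) and 1.43 ± 0.09 to naive cells (adjusted p = 9.20e-08). TH2 against naive gave 0.09 ± 0.08 (adjusted p = 0.361), and without TH2 replicate 1 the ratio was 0.16 and was called (adjusted p = 0.00692). The immediate early sums were 10711 to 11173 CPM in TFH, 3350 to 3873 CPM in TH2 and 11493 to 11781 CPM in naive libraries. Naive libraries had the highest of these sums, and the part of immediate early induction in the RNA-seq Dusp1 ratios was not tested. The sum of 11 B cell genes was 294 to 302 CPM in TFH against 159 to 174 CPM in TH2 libraries. Of these genes 8 were called higher and 1 lower, against 61.8% of all genes. Myeloid sums (136 to 147 against 212 to 224 CPM) and erythroid sums (21.2 against 41.8 to 45.8 CPM) were lower in TFH. The part of these transcripts in the Dusp1 ratio was also not tested. The transcript that stands for Dusp1 in RNA-seq is a retained-intron model that overlaps the coding transcript almost base for base, and both held nearly the same counts (44515 against 44211 in TFH CXCR5hi replicate 1), so their reads cannot be separated. An exon of Ergic1 lies on the opposite strand within the Dusp1 locus, and no source used here says whether the counting used strand.

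The RNA-seq comparisons called most members and most genes. In TH2 against naive cells, 5 members were called higher and 2 lower, where 65.8% of 17013 genes were called. In TFH CXCR5hi against naive cells, 5 were higher and 2 lower, against 57.2% of genes. In TFH CXCR5hi against TH2 cells, 4 were higher and 2 lower, against 61.8% of genes. The members' median log2 ratios were 0.78, 0.97 and 0.19, and those of all genes 0, 0 and -0.01. With most genes called, a call says little about the members, and the sizes below say more. Replicates in RNA-seq were close to each other (chi-square per degree of freedom 2.56 to 19.9, against 33.2 to 53.0 in QuantSeq), and the 3 comparisons share their libraries.

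**Figure D4:**
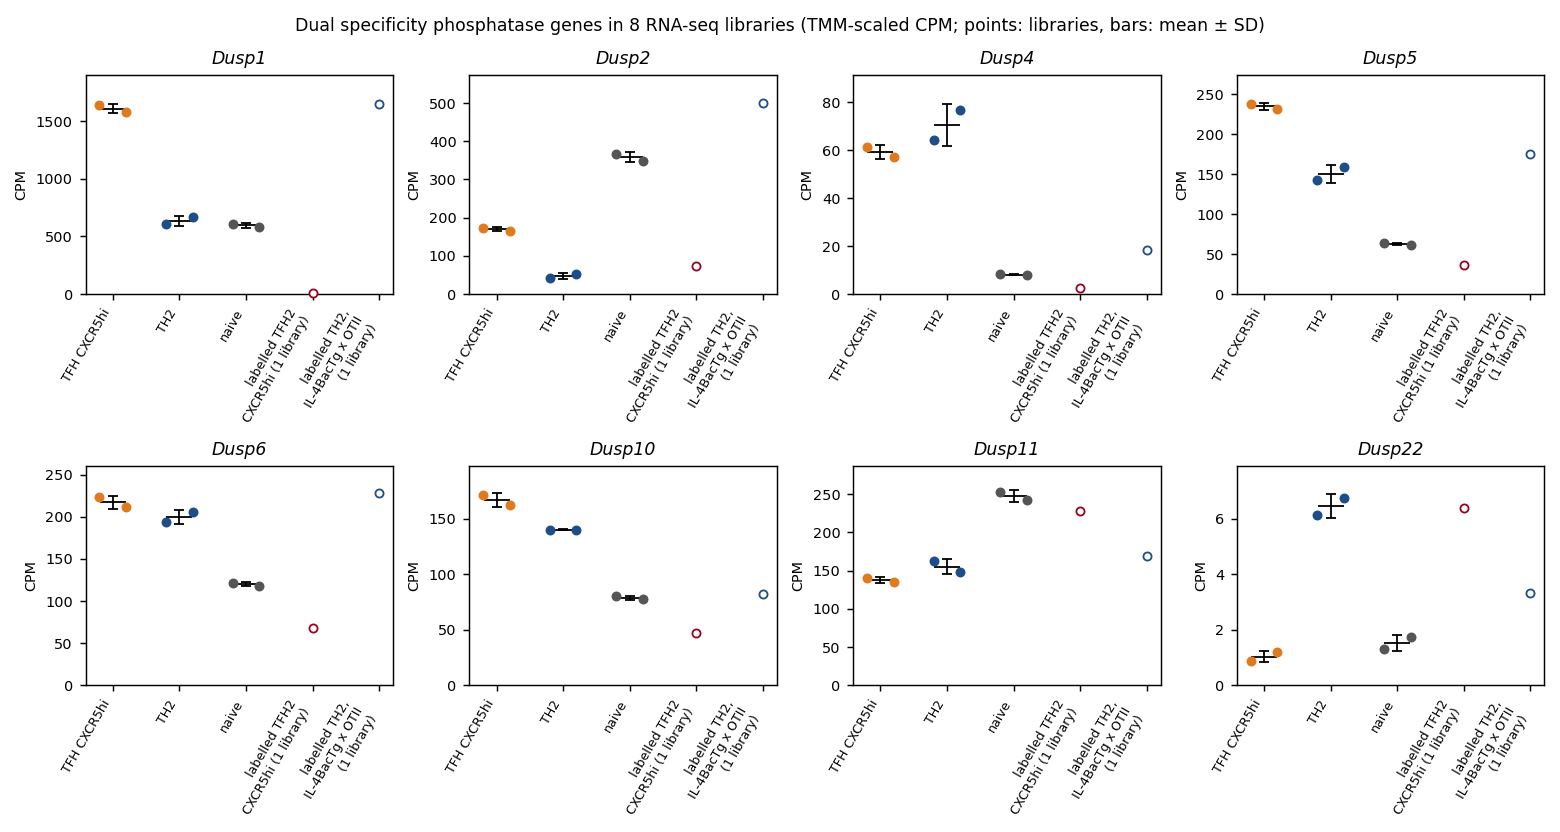
TMM-scaled CPM (y axis, each panel on its own scale from 0) of the 8 phosphatase genes in 8 RNA-seq libraries (x axis); filled points are libraries of replicated groups with the mean ± SD, and open points the 2 single libraries under their labels. Dusp1 is at 1639 and 1581 CPM in TFH CXCR5hi and at 6.38 CPM in the library labelled TFH2 CXCR5hi.

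Dusp2, also known as PAC-1, is a nuclear phosphatase of lymphoid cells and lies on chromosome 2 (127336159 to 127338376, plus strand). The assays gave ratios of different sign for it in TFH against TH2 cells. In RNA-seq it had 174 and 166 CPM in TFH CXCR5hi, 42.5 and 53.0 in TH2 and 368 and 348 in naive libraries. The 3 groups did not overlap, with naive cells highest and TH2 cells lowest. The log2 ratio was 1.83 ± 0.10 for TFH to TH2 (adjusted p = 3.25e-08), -1.07 ± 0.10 for TFH to naive (adjusted p = 2.61e-06) and -2.90 ± 0.10 for TH2 to naive (adjusted p = 7.29e-10). In QuantSeq it had 283, 227 and 226 CPM in TFH CXCR5hi, against 411, 244, 346 and 139 CPM in TH2 libraries. There the groups overlapped, and the log2 ratio was -0.21 ± 0.33 with a 95% interval from -0.87 to 0.44 (adjusted p = 0.899). That interval does not reach the RNA-seq ratio. The TH2 groups of the assays differ in genotype, IL-4BacTg x OTII in QuantSeq and IL-4BacTg in RNA-seq, and assay and genotype cannot be told apart.

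Within QuantSeq, Dusp2 was 460.2, 380.0 and 358 CPM in TFH CXCR5lo and 283, 227 and 226 CPM in TFH CXCR5hi. The gates did not overlap, but the log2 ratio of CXCR5hi to CXCR5lo was -0.70 ± 0.36 (adjusted p = 0.641) and not a call. The summed CPM of 8 naive cell genes was 1728 to 3110 in TFH CXCR5lo and 739 to 1362 in TFH CXCR5hi libraries. In TFH2 cells it was 910 to 997 and 582 to 880. In CXCR5hi, 3 of 8 were called lower in TFH and 1 of 8 in TFH2, none higher, against 0.139% and 0.153% of genes. The part of naive cell genes in the gate ratios of any member was not tested. TFH2 cells had 198 ± 67.3 CPM (SD, n = 6) and TFH cells 305 ± 87.0 CPM (SD, n = 8), with overlap, a log2 ratio of -0.56 ± 0.24 and an adjusted p of 0.402. Myeloid, erythroid and B cell transcripts reached higher sums in TFH2 libraries. The summed CPM of 12 myeloid genes was 258 to 951 in TFH2 against 228 to 414 in TFH libraries. That of 6 erythroid genes was 413 to 1590 against 39.5 to 340. The sum of 11 B cell genes was 302 to 1065 CPM in TFH2 against 181 to 305 CPM in TFH libraries. Of those tested, 1 of 11 myeloid, 1 of 4 erythroid and 2 of 8 B cell genes were called higher and none lower. The share of all genes called was 0.647%. The part of these transcripts in TFH2 to TFH ratios was not tested. TFH2 and TFH libraries also differ in Xist and Ddx3y, which cannot be told apart from cell type.

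**Figure D5:**
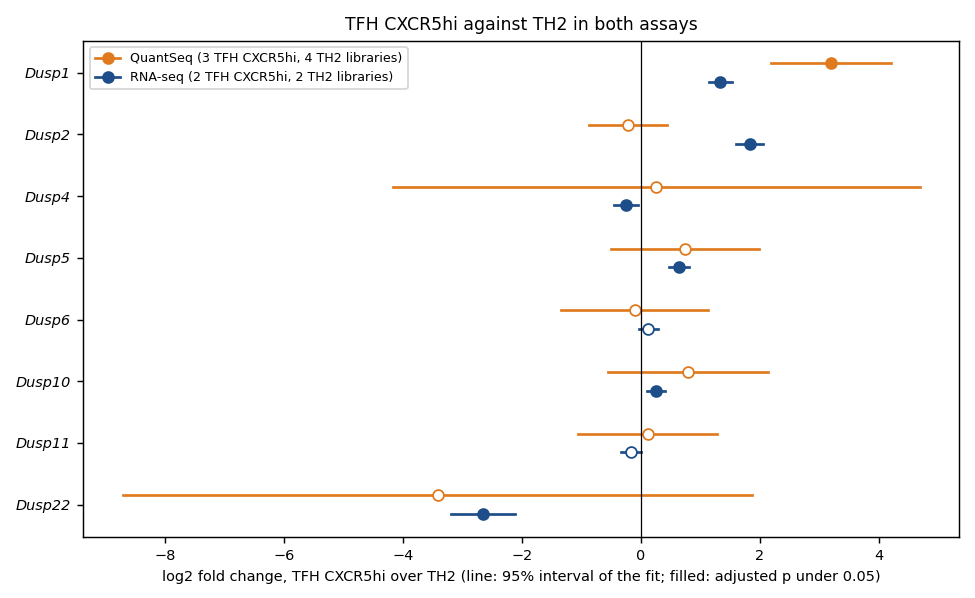
Log2 fold change of TFH CXCR5hi over TH2 cells (x axis) for the 8 genes in QuantSeq and RNA-seq; lines are 95% intervals of the fit and filled points have an adjusted p under 0.05. Dusp1 is above 0 in both assays, Dusp2 is at 1.83 in RNA-seq and -0.21 in QuantSeq, and the QuantSeq intervals of Dusp4 and Dusp22 span several log2 units.

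Dusp4, also known as MKP-2, is a nuclear phosphatase of ERK and JNK on chromosome 8 (34807297 to 34819894, plus strand). In RNA-seq it was higher in both effector groups, at 61.3 and 57.2 CPM in TFH CXCR5hi and 64.4 and 76.9 in TH2, against 8.30 and 7.84 in naive libraries. The naive libraries stood apart from both. The log2 ratio to naive cells was 2.88 ± 0.11 for TFH (adjusted p = 1.57e-09) and 3.13 ± 0.11 for TH2 (adjusted p = 4.67e-10). TFH against TH2 gave -0.25 ± 0.09 with an adjusted p of 0.0322. That call was lost with DESeq2 (adjusted p = 0.106), with only the groups compared (0.0592), with sums over transcripts (0.0511) and without TFH CXCR5hi replicate 1 (0.0568), TFH CXCR5hi replicate 2 (0.187) or TH2 replicate 2 (0.106).

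QuantSeq saw Dusp4 at low and scattered counts. It had no count in 9 of 22 libraries and under 10 counts in 12. The CXCR5lo gates were the exception, with 167, 129 and 63 counts in TFH (45.23, 30.3 and 21.1 CPM) and 57 and 25 counts in TFH2 (19.6 and 12.7 CPM). The CXCR5hi gates had 33, 12 and 0 counts in TFH and 1 and 0 counts in TFH2. In neither cell type did the CXCR5hi and CXCR5lo libraries overlap, and neither comparison was a call: the adjusted p was 0.946 in TFH and 0.842 in TFH2. TH2 libraries had 0, 5, 0 and 29 counts, the last at 15.7 CPM, and Bcl6KO libraries none. The spread between libraries leaves a 95% interval from -4.18 to 4.69 for the log2 ratio of TFH CXCR5hi to TH2 (adjusted p = 1).

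Dusp5, a nuclear phosphatase specific for ERK, lies on chromosome 19 (53529109 to 53542431, plus strand). It rose in RNA-seq in both effector groups, to 238 and 232 CPM in TFH CXCR5hi and 143 and 158 in TH2, against 63.5 and 61.6 in naive libraries. The 3 groups did not overlap. The log2 ratio was 0.64 ± 0.07 for TFH to TH2 (adjusted p = 1.69e-05), 1.91 ± 0.08 for TFH to naive (adjusted p = 3.42e-09) and 1.27 ± 0.08 for TH2 to naive (adjusted p = 6.09e-08). An antisense gene, AC137853.2, shares exon bases with Dusp5, held 180 counts over all QuantSeq libraries and could trade reads with it if strand was not used.

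In QuantSeq Dusp5 had a gradient in means over the gates of TFH2 cells, from 147 CPM in CXCR5lo to 98.5 in CXCR5int and 42.4 in CXCR5hi, with no overlap between gates. TFH cells had means of 110.2, 79.6 and 49.7 CPM in the same order, but single libraries crossed it, with 140.0, 152 and 38.4 CPM in CXCR5lo and 68.2, 6.38 and 74.4 CPM in CXCR5hi. The log2 ratio of CXCR5hi to CXCR5lo was -1.79 ± 0.85 in TFH2 (unadjusted p = 0.0363, adjusted p = 0.842) and -1.15 ± 0.68 in TFH (adjusted p = 0.645). Neither passed, and the test of the difference between them gave an adjusted p of 1. TH2 libraries had 64.3, 12.6, 28.0 and 13.5 CPM. Over all gates against TH2 the log2 ratio was 1.44 ± 0.52 with an adjusted p of 0.0579, just outside the threshold. It was called without TH2 replicate 1 (2.16, adjusted p = 0.0124), without TFH CXCR5hi replicate 2 (1.53, 0.0328) and without TFH CXCR5lo replicate 3 (1.51, 0.0408).

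Dusp6, also known as MKP-3, is the cytoplasmic phosphatase of ERK and lies on chromosome 10 (99263231 to 99267489, plus strand). RNA-seq gave 223 and 212 CPM in TFH CXCR5hi and 194 and 206 in TH2, against 122 and 118 in naive libraries. The log2 ratio to naive cells was 0.86 ± 0.07 for TFH (adjusted p = 1.70e-06) and 0.73 ± 0.07 for TH2 (adjusted p = 3.88e-06). TFH and TH2 cells differed by 0.12 with a 95% interval from -0.04 to 0.28 (adjusted p = 0.163), and the ratio was called without TH2 replicate 2 (0.16, adjusted p = 0.00332). In QuantSeq its libraries ranged from 6.79 to 166 CPM, and replicates of 1 group differed severalfold, as 103 and 17.9 CPM in TFH2 CXCR5int. The log2 ratio of TFH CXCR5hi to TH2 there was -0.11 with a 95% interval from -1.35 to 1.14.

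Dusp10, also known as MKP-5, acts on p38 and JNK and lies on chromosome 1 (184013302 to 184075636, plus strand). In RNA-seq it had 171 and 162 CPM in TFH CXCR5hi and 139 and 140.1 in TH2, against 80.0 and 77.5 in naive libraries, with no overlap among the 3 groups. The log2 ratio was 1.08 ± 0.07 for TFH to naive (adjusted p = 1.64e-07), 0.83 ± 0.07 for TH2 to naive (adjusted p = 9.59e-07) and 0.25 ± 0.07 for TFH to TH2 (adjusted p = 0.00730). Leaving out TFH CXCR5hi replicate 1 ended the last of these calls (0.19, adjusted p = 0.156). In QuantSeq it had 51.8, 48.0 and 42.6 CPM in TFH CXCR5hi, against 16.5, 31, 20.5 and 41.7 CPM in TH2 libraries. Those groups did not overlap, yet the log2 ratio of 0.79 ± 0.68 was not a call (adjusted p = 0.651). TFH CXCR5lo libraries, at 97.2, 81.7 and 127 CPM, lay above the TFH CXCR5hi libraries (log2 ratio of CXCR5hi to CXCR5lo -1.10 ± 0.73, adjusted p = 0.719). Over all gates against TH2 the ratio was 1.18 ± 0.55 (adjusted p = 0.169), and DESeq2 called it (1.15, adjusted p = 0.0181).

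Dusp11, the RNA 5'-triphosphatase, lies on chromosome 6 (85942268 to 85961667, minus strand) and was lower in both effector groups than in naive cells, as Dusp2 was. It fell to 141 and 135 CPM in TFH CXCR5hi and to 162 and 148 in TH2, against 253 and 242 in naive libraries. The log2 ratio to naive cells was -0.84 ± 0.08 for TFH (adjusted p = 2.69e-06) and -0.67 ± 0.08 for TH2 (adjusted p = 1.07e-05). TFH against TH2 gave -0.17 ± 0.08 (adjusted p = 0.0750), which was called with median-ratio factors (0.0308), DESeq2 (0.0456), sums over transcripts (0.0301) and without TH2 replicate 2 (0.000302). In QuantSeq its libraries ranged from 22.5 to 134 CPM. TFH CXCR5hi against TH2 gave a log2 ratio of 0.12 with a 95% interval from -1.05 to 1.29.

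Dusp22, also known as JKAP, dephosphorylates Lck and lies on chromosome 13 (30659999 to 30711231, plus strand). It was called lower than in TH2 cells in RNA-seq TFH cells and over all QuantSeq gates. In RNA-seq it had 24 and 23 counts in TFH CXCR5hi (0.884 and 1.18 CPM), 132 and 167 counts in TH2 (6.15 and 6.76 CPM) and 41 and 61 counts in naive libraries (1.32 and 1.73 CPM). TH2 libraries stood above both other groups. The log2 ratio was -2.66 ± 0.24 for TFH to TH2 (adjusted p = 2.10e-06) and 2.07 ± 0.22 for TH2 to naive (adjusted p = 6.84e-06). TFH against naive gave -0.58 ± 0.26 and was not a call (adjusted p = 0.0750). The summed CPM of 9 CD8 and NK cell genes was 67.0 to 74.1 in TFH, 3374 to 4128 in TH2 and 51.4 to 52.1 in naive libraries. Most of the TH2 sum came from Gzmb (mean 2604 CPM) and Gzma (1124 CPM), and 2 of the 9 genes had no count there. Of the 8 tested, 3 were called higher and 4 lower in TH2 than in naive cells (median log2 ratio -0.26), against 65.8% of genes. In TFH against TH2 cells, 2 were called higher and 4 lower, against 61.8% of genes. The part of these genes in the Dusp22 ratios was not tested.

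QuantSeq counts of Dusp22 were sparse, with none in 10 of 22 libraries and under 10 counts in 14. The 6 TFH2 libraries held 12 counts in all and the 8 TFH libraries 72, of which 49 were in TFH CXCR5lo replicate 1. TH2 libraries held 171, 84, 18 and 0 counts, or 67.1, 28.6, 6.15 and 0 CPM. Both TFH2 CXCR5hi libraries had no count, but so did 1 TH2 library, and that comparison was not a call (adjusted p = 0.345; DESeq2 gave 0.0494). Over all gates the mean was 1.67 ± 3.73 CPM (SD, n = 14) against 25.5 ± 30.3 CPM in TH2 (SD, n = 4), with an adjusted p of 0.00912. Groups overlapped, since 1 TH2 library had no count. The call was lost without TH2 replicate 1 (adjusted p = 0.0794) and against TH2 replicates 3 and 4 alone (adjusted p = 0.531). Those replicates also differ from replicates 1 and 2 in Xist and Ddx3y. Il4KO libraries had 11.7 and 15.2 CPM, and Bcl6KO libraries 0 and 0.473 CPM. The genes most like Dusp22 over the 22 libraries were Zc3hav1l (Pearson r = 0.81) and Lrfn1 (0.80), the only ones to reach 0.8, with counts as sparse as these behind the value.

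Compared per kilobase of transcript, where genes can be set beside each other, Dusp1 had the highest level of the 8 in all 3 replicated RNA-seq groups. Its mean was 696 CPM per kilobase in TFH CXCR5hi, 275 in TH2 and 258 in naive cells. In TFH cells it was followed by Dusp2 at 105, Dusp5 at 95, Dusp6 at 77.7, Dusp10 at 59.7, Dusp4 at 21.6, Dusp11 at 21.4 and Dusp22 at 0.891. In TH2 cells Dusp6 (71.4) and Dusp5 (60.8) stood next and Dusp2 (29.5) came after Dusp10 (50.1). In naive cells Dusp2 stood next to Dusp1, at 221 CPM per kilobase.

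The other genes of the pathway were given by 4 lists. Of 12 further dual specificity phosphatases and relatives tested in QuantSeq, edgeR called none in TFH CXCR5hi against TH2 cells, with 2 at an unadjusted p under 0.05, both higher, and DESeq2 called 0. Of all genes, edgeR called 3.51% there, and 2163 of 14383 had an unadjusted p under 0.05. The RNA-seq comparison of TFH CXCR5hi with TH2 cells called 3 higher and 4 lower of 12, against 61.8% of all genes. Dusp8 had 10.2 ± 0.104 CPM in TFH CXCR5hi and 0.298 ± 0.0928 in TH2 libraries (SD, n = 2 each), a log2 ratio of 5.05 ± 0.27. Dusp14 had 7.36 ± 0.362 against 0.858 ± 0.160 CPM, and Dusp3 0.939 ± 0.599 against 6.98 ± 0.255 CPM. Dusp14 and Dusp8, at 7.19 ± 0.37 and 4.62 ± 0.25, also had the smallest p-values of this list in TFH against naive cells, and Dusp16 (3.11 ± 0.16) did in TH2 against naive cells. The list gave 5 higher and 1 lower of 12 in TFH against naive cells, where 57.2% of all genes were called. It gave 7 higher and 3 lower of 12 in TH2 against naive cells, where 65.8% were called.

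Among 14 tested genes of the p38 and JNK arm, 5 were called higher and none lower in QuantSeq TFH CXCR5hi against TH2 cells (median log2 ratio 0.65, against 0 for all genes). Of all genes, 3.51% were called in that comparison. Junb had 5982 ± 428 CPM against 1832 ± 359 CPM (SD, n = 3 and 4), a log2 ratio of 1.71 ± 0.16, Jund 1811 ± 480 against 796 ± 212 CPM and Zfp36l1, an RNA-binding protein that destabilises AU-rich transcripts, 235 ± 34.8 against 66.1 ± 24.7 CPM. Against TH2, TFH2 CXCR5hi cells gave 4 higher and none lower in this list, Junb (1.44 ± 0.18) and Zfp36l1 (1.88 ± 0.40) among them. Of all genes, 2.94% were called there. In TFH2 against TFH cells Jund was lower, at 1200 ± 165 CPM against 2250 ± 623 CPM (log2 ratio -0.91 ± 0.15, adjusted p = 3.71e-05), while no phosphatase gene was called there. These groups also differ in Xist and Ddx3y. RNA-seq TFH against TH2 gave 11 of 16 higher and 2 lower, against 61.8% of all genes. Gadd45b led, at 454 ± 16.4 against 21.2 ± 0.587 CPM.

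Among 14 tested ERK targets and feedback inhibitors, QuantSeq called 1 higher in TFH CXCR5hi against TH2 cells, Fosb, at 420 ± 17.3 CPM against 24.9 ± 26.8 CPM, while the list's median was 1.88. Of all genes, 3.51% were called there. RNA-seq called 14 of 19 higher and 3 lower (median 1.20), against 61.8% of all genes. Egr2 had 94.0 ± 3.51 CPM in TFH CXCR5hi and 2.43 ± 0.738 in TH2 libraries (log2 ratio 5.25 ± 0.13), Egr3 53.5 ± 5.05 against 1.58 ± 0.0657 CPM, and Myc 18.0 ± 0.196 against 117 ± 9.34 CPM. Of 28 MAP kinases and their kinases tested in RNA-seq, 15 were called higher in TFH CXCR5hi than in TH2 cells and 6 lower, against 61.8% of all genes. Mapk11, a p38 kinase, was among the higher ones (149 ± 7.59 against 32.2 ± 3.66 CPM). The immediate early sums given beside Dusp1 also differed between these groups, and their part in the calls of these lists was not tested. Those sums are not separate from the lists. Fos, Fosb, Egr1 and Ier2 are also in the ERK list, and Jun, Junb and Atf3 in the p38 and JNK arm.

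The knockout groups were set against TH2 cells. Il4KO cells came through a CD4+ gate and TH2 cells through CD4+hCD2+, and neither knockout label lists IL-4BacTg. Knockout, gate and transgene cannot be told apart in Il4KO against TH2. The summed CPM of 8 naive cell genes was 3120 to 3613 in Il4KO and 2240 to 2841 in TH2 libraries, and none was called. The targeted genes are given first. Bcl6 had 6.77 and 25.6 CPM in Bcl6KO libraries, against 0.392 to 13.3 CPM in TH2 libraries, and was not lower in the knockout. Il4 had 0 and 1.03 CPM in Il4KO libraries, against 0 to 13.7 CPM in TH2 libraries. Counts from 3' ends need not cover the deleted exons, and the labels do not give them, so neither gene checks its label. Dusp1 had 45.15 and 67.7 CPM in Bcl6KO (log2 ratio -0.22 ± 0.53, adjusted p = 1) and 84.9 and 92.4 CPM in Il4KO libraries (0.44 ± 0.52, adjusted p = 1). Against TH2 replicates 1 and 2 alone, the Il4KO ratio was 1.88 ± 0.37 and was called (adjusted p = 0.000209), and against replicates 3 and 4 alone it was -0.29 ± 0.37 (adjusted p = 1). Both groups stayed far below the 334 to 867 CPM of TFH2 and TFH libraries.

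Dusp2 was 143 and 108 CPM in Il4KO and 139 to 411 CPM in TH2 libraries, a log2 ratio of -1.19 ± 0.40 (unadjusted p = 0.00339, adjusted p = 0.697). Dusp6 was 6.79 and 40.7 CPM in Il4KO and 28.7 to 136 CPM in TH2 libraries, a log2 ratio of -1.75 ± 0.78 (unadjusted p = 0.0258, adjusted p = 0.921). Neither passed. Dusp10 was 59.7 and 53.9 CPM in Bcl6KO, above the 16.5 to 41.7 CPM of TH2 libraries, with a log2 ratio of 1.05 ± 0.75 (adjusted p = 0.861). Members' medians were -0.36 in Bcl6KO and -0.78 in Il4KO against TH2, and those of all genes were -0.04 and 0.

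The 2 single RNA-seq libraries are given as values under their labels, with no test. The library labelled TFH2 CXCR5hi had 82 counts of Dusp1, or 6.38 CPM, beside 1581 CPM or more in the TFH CXCR5hi libraries and 583 CPM or more in naive and TH2 libraries. Its immediate early sum, 401 CPM, was likewise the lowest of the 8 RNA-seq libraries. It also had the lowest Dusp4 (2.64 CPM), Dusp5 (36.9), Dusp6 (68.2) and Dusp10 (47.0) of the 8, while Dusp11 (228) was near naive cells and Dusp22 (6.38) near the TH2 libraries. The library labelled TH2 from IL-4BacTg x OTII mice had 1649 CPM of Dusp1, 499.6 of Dusp2, 176 of Dusp5 and 229 of Dusp6, with an immediate early sum of 10559 CPM. Its Dusp1 was above both TFH CXCR5hi libraries and its Dusp2 above both naive libraries. Since the markers of both libraries go against their labels, no direction is drawn between them.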

How the data were processed

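The authors deposited raw counts, per gene for 22 QuantSeq libraries and per transcript for 8 RNA-seq libraries, made from 10 ng of RNA per library, per the labels' protocols. Per the submitters' processing notes, the tools included featureCounts 1.6.0, STAR 2.7.0c and Bowtie 0.12.2, with GRCm38.p6, mm10 and mm9 as builds. Which of them made which deposited counts, and whether strand was used, was not given in the sources used here.

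Gene names came from GENCODE M21. The 93 QuantSeq identifiers without a name held 0.0062% of counts. For RNA-seq, 82946 of 95883 transcripts were named, the unnamed held 14.7% of counts, and a gene was represented by its transcript with the most counts over all libraries, because overlapping transcripts share reads (sums over transcripts were an alternative). Counts of each assay were fitted apart with edgeR 4.0.16 in R 4.3.3 (TMM factors, filterByExpr with a minimum count of 10 and total of 15, robust quasi-likelihood fit of all groups, Benjamini-Hochberg adjustment over 14383 or 17013 genes). Residual degrees of freedom were 13 in QuantSeq and 3 in RNA-seq.

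Libraries were grouped by GEO's labels. These number no replicates, so numbers follow accession order and pair nothing. No 2 replicates had identical counts or differed by as little as sampling noise. Alternatives were median-ratio factors, no filter, DESeq2 1.42.0, only the groups compared, sums over transcripts and leaving out each library; the split of the TH2 libraries was added after seeing the data. The fit was checked on simulated data. All 8 members were tested in every main comparison, but the text does not print each member's value in each of them. Of other lists, at most the 3 called genes with the smallest p are named. Likeness names up to 3 genes with r of at least 0.8 (log2 CPM, prior count 2). Members and lists were chosen with earlier results of these data known. Promoter windows are RefSeq's for GRCm38.p6. Some results of the list of MAP kinases and their kinases are not reported here.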

Additional observations from a re-analysis of the deposited data

Results flagged for a closer look

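In the QuantSeq TH2 group, the Dusp4 level of replicate 4, 15.7 CPM (29 counts), lay far from the other 3 libraries, which had 0, 1.70 and 0 CPM. This was 1 of 8 genes examined in that group, the only group with enough libraries for the rule. Chance alone marks about 1 in 20 where values spread normally, which levels at 0 do not.

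The 2 single RNA-seq libraries, which enter no comparison, held values above both naive libraries. The library labelled TH2 from IL-4BacTg x OTII mice had 1649 CPM of Dusp1, 499.6 of Dusp2, 18.2 of Dusp4, 176 of Dusp5, 229 of Dusp6, 81.7 of Dusp10 and 3.33 of Dusp22. The library labelled TFH2 CXCR5hi had 6.38 CPM of Dusp22. The markers of both libraries go against their labels, and no test was made on them.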

How the results depend on the processing

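Of 96 member values, recomputed under 1195 alternatives in all, 244 calls were kept, 9 lost and 12 gained, and 61 values of members that were not called changed sign. The Dusp1 call against TH2 cells held under every alternative run in the 3 QuantSeq comparisons of TFH and TFH2 cells. Without a filter, edgeR called 142 genes in TFH2 against TFH, 33 and 36 between gates of TFH and TFH2, 4 in the gate difference, 17 in Bcl6KO and 38 in Il4KO. DESeq2 called 979 genes in TFH CXCR5hi and 817 in TFH2 CXCR5hi against TH2 (with 2 members in the second), 268 in TFH2 against TFH, 92 and 126 between gates, 39 in the gate difference, 144 in Bcl6KO and 92 in Il4KO. With only the groups compared, 7 and 0 genes were called between gates of TFH and TFH2, 1 in Bcl6KO and 0 in Il4KO. With TH2 replicates 1 and 2 alone, 931 genes were called over all gates, 63 in Bcl6KO and 74 in Il4KO, with 1 member in Il4KO. With replicates 3 and 4 alone, 861 were called over all gates, with 1 member, 50 in Bcl6KO and 33 in Il4KO. The cause of these shifts was not tested.

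Leaving out each library in turn gave 336 to 463 genes in TFH CXCR5hi against TH2, 307 to 411 in TFH2 CXCR5hi, 942 to 1481 over all gates (2 to 3 members), 80 to 214 in TFH2 against TFH, 13 to 29 and 21 to 111 between gates of TFH and TFH2, 1 to 43 in the gate difference, 7 to 56 in Bcl6KO and 10 to 31 in Il4KO. The highest of these were without TFH2 CXCR5lo replicate 1 (214, 111 and 43), Bcl6KO replicate 1 (56) and TH2 replicate 4 (31), and the lowest without TFH CXCR5hi replicate 2 (336) and TFH2 CXCR5int replicate 2 (942). In RNA-seq it gave 9609 to 11339 genes in TH2 against naive (7 to 8 members), 7739 to 8059 in TFH against naive (7 members) and 8779 to 10855 in TFH against TH2 (4 to 7 members). No paired analysis was possible because the labels give no replicate numbers. In QuantSeq, 12 of 22 libraries hold under 10 counts of Dusp4 and 14 of 22 under 10 of Dusp22, which limits the precision of both, and groups of 2 to 4 libraries limit the rest.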
